A study of Arabidopsis thaliana with 9 samples.

Results

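The core and linker histone genes are the 39 Arabidopsis thaliana genes, among 32678 with a deposited value, that encode histones H4, H3.1, H3.3, H2A with its variants, H2B and H1. They were taken by gene identifier and not by any measured value. By protein class, 25 encode the replication-linked core histones (8 H4, 5 H3.1, 4 canonical H2A and 8 H2B genes), 11 encode core variants (3 H3.3, 2 H2A.X, 3 H2A.Z and 3 H2A.W genes) and 3 encode linker histone H1. All 39 passed the filter on low values and were tested.

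Histones package DNA into nucleosomes: H2A, H2B, H3 and H4 form the core, and H1 binds the linker DNA between cores. The replication-linked forms are made mainly in S phase, when the copied DNA needs new nucleosomes, and their RNA is therefore highest in dividing tissue. Variants are made through the cell cycle and replace the replication-linked forms at particular places: H3.3 in transcribed genes, H2A.Z at gene starts and in silent responsive genes, H2A.X as the substrate of the DNA damage mark, and H2A.W in plant heterochromatin. In plants the replication-linked histone RNAs carry poly(A) tails, so poly(A) selection retains them.

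The libraries, 3 per genotype, hold poly(A)-selected RNA from whole seedlings of the mutants csu5-1 and csu5-3 and of the wild type Col-0, here Col. Seedlings of every genotype were 5 days old and had grown under white light kept on without a break, at 14.59 μmol of photons per m2 and s. The mutants are named for COP1 SUPPRESSOR 5, each mutant is a single allele, and the labels name no other mutation or transgene. The labels do not say whether replicates came from separate sowings, so p-values measure only the spread between these libraries, which may be technical.

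Estimated depth was 37.2 to 43.2 M counted reads per library, and no batch is given in the labels. The sources used here give no locus for the mutated gene; WRKY32 (AT4G30935), to which background knowledge points, averaged 8.12 ± 0.14 FPKM in csu5-1, 3.65 to 4.58 in csu5-3 and 9.87 ± 1.31 in Col (SD, n = 3). FPKM is fragments per kilobase of exon and M (mega) counted reads, so every value is a share of its library. Seedling organ markers were present in every group: the leaf genes RBCS1A and LHCB1.3 and the root genes PRP3 and RHD6 summed to 29821 to 30208 FPKM in csu5-1, 42323 to 47970 in csu5-3 and 45542 to 48714 in Col. The leaf genes carried nearly all of that sum. In csu5-1, csu5-3 and Col, in that order, PRP3 averaged 6.74, 16.6 and 20.3 FPKM and RHD6 averaged 1.84, 1.99 and 2.72 FPKM. In whole seedlings, fewer cells of a type and less RNA per cell cannot be told apart.

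The classes are built from similar genes, and which copy a read came from depends on the bases that differ. The coding regions of the 8 H4 genes, 312 bases each, were 78.9% to 98.1% identical over 28 pairs. The H3.1 and H3.3 coding regions, 411 bases each, were 80.3% to 89.5% identical among H3.1 copies, 78.6% to 88.8% among H3.3 copies and 74.0% to 80.3% between the classes. Coding bases 91 to 130, shown because this stretch separates the replication-linked from the replacement H3, hold 5 of the 19 coding bases at which no H3.1 copy matched any H3.3 copy. They are in capitals, in the 5′ to 3′ direction of each gene, from the RefSeq sequence of TAIR10.1.
AT1G09200 (H3.1, chromosome 1, minus strand): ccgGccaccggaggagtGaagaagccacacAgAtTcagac
AT3G27360 (H3.1, chromosome 3, minus strand): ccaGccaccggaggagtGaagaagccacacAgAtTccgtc
AT5G10390 (H3.1, chromosome 5, minus strand): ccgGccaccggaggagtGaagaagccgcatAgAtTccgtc
AT5G10400 (H3.1, chromosome 5, minus strand): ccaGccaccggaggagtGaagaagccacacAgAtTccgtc
AT5G65360 (H3.1, chromosome 5, minus strand): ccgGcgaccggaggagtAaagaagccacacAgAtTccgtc
AT4G40030 (H3.3, chromosome 4, minus strand): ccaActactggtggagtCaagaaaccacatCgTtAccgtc
AT4G40040 (H3.3, chromosome 4, minus strand): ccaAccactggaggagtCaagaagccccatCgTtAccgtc
AT5G10980 (H3.3, chromosome 5, minus strand): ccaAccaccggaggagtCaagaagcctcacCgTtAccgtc
Of the 39 genes, 29 shared no stretch of 100 bases with another annotated gene, so most copies were separable by a read of that length. Overlap with another annotated gene was found for 9, namely AT3G27360, HTA13, HTB9, AT5G02570, GAMMA-H2AX, HTA9, HTA12, AT1G06760 and AT2G30620. The use of strand in counting is not stated in the labels or processing notes. The values of these 9 can therefore hold reads of the overlapping gene or lack reads that lie in both. The H2B gene AT5G02570 lies within the transcript of HTA12 on the opposite strand and had at most an estimated 37 reads, so its value is uncertain.

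The classes also differ in gene structure. No H4, H3.1 or H2B gene has an intron in its coding region, whereas all 4 canonical H2A genes, all 11 variant genes and 2 of the 3 H1 genes have at least 1. The third H1 gene, HIS1-3, was read on a coding form of 417 bases. Its transcripts hold an intron, so its lack of a coding intron can depend on the form read. A second feature is the octamer CGCGGATC, a motif known from plant histone promoters. It occurred on either strand in 41 of 27443 nuclear promoters (0.149%), taken as the 300 bases upstream of the annotated start. Of these 41 promoters, 10 belong to the histone genes described here. They are printed with up to 20 bases on each side of the octamer, which is in capitals; on the opposite strand it reads GATCCGCG. Sequences are from the RefSeq TAIR10.1 assembly and run in the direction of the gene.
AT1G07660 (H4, chr1:2368687-2368734, plus strand): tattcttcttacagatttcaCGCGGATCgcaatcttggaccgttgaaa
AT5G59690 (H4, chr5:24051383-24051430, plus strand): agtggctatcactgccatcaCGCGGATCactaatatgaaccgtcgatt
AT1G09200 (H3.1, chr1:2972397-2972444, minus strand): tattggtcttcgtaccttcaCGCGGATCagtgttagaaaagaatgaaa
AT5G10400 (H3.1, chr5:3271050-3271097, minus strand): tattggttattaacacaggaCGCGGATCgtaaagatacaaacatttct
AT5G65360 (H3.1, chr5:26120680-26120727, minus strand): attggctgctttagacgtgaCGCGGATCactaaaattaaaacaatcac
HTA10 (AT1G51060, canonical H2A, chr1:18926717-18926764, plus strand): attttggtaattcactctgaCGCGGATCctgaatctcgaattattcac
HTA13 (AT3G20670, canonical H2A, chr3:7229302-7229349, plus strand): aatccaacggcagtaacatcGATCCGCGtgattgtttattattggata
AT4G40040 (H3.3, chr4:18558946-18558982, minus strand): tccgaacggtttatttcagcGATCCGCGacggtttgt
HTA6 (AT5G59870, H2A.W, chr5:24116309-24116356, minus strand): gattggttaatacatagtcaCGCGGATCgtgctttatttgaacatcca
AT1G06760 (H1, chr1:2077768-2077815, minus strand): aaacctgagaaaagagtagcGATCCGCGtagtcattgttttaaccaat
The octamer stood in 7 of 25 replication-linked genes (2 H4, 3 H3.1 and 2 canonical H2A genes), in 2 of 11 variant genes and in 1 of 3 H1 genes. AT1G09200 and HTA10 each held 2 copies. None of the 8 H2B promoters held it, but 7 of them, all except that of HTB4, held the hexamer ACGTCA, which occurred in 8.72% of all promoters. E2F motifs (TTTCCCGC, TTTGCCGC, TTTCGCGC or TTTGGCGC) stood in 4 histone promoters, against 1.57% of all. The G-box CACGTG stood in 3 (7.09% of all), abscisic acid response motifs (ACGTGGC or ACGTGTC) in 4 (7.01%) and W-boxes (TTGACC or TTGACT), the letters that WRKY factors bind, in 11 (32.3%). Every motif was searched on both strands, and the G-box letters can overlap those of the abscisic acid motifs. A match is a description of letters and not of a bound site.

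Levels spanned a wide range. Over the 9 libraries the highest mean was that of the H3.3 gene AT4G40040 (396 FPKM), followed by its neighbour 42 bases away, the H3.3 gene AT4G40030 (292 FPKM), and by the linker histone gene HIS1-3 (226 FPKM). The order was not the same in every genotype: HIS1-3 averaged 169 ± 17.0 FPKM in csu5-1, where the H2B gene HTB4 (205 ± 10.6) and the H3.3 gene AT5G10980 (178 ± 4.3) stood above it, and 292 ± 13.4 FPKM in Col (SD, n = 3). The lowest was AT5G02570 (0.624 FPKM), and next came the H3.1 gene AT3G27360 (5.19 FPKM). Some classes rested on few genes: HTA9 made up 71.5% of the summed H2A.Z level in csu5-1, 79.6% in csu5-3 and 82.1% in Col, H2AXA made up 73.7%, 68.1% and 64.1% of that of H2A.X in the same genotypes, and HIS1-3 made up 38.2%, 49.2% and 57.3% of that of H1. The 8 H4 genes were more even, with AT5G59690 highest at 26.2% of their sum over all libraries.

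In csu5-1 seedlings against Col, most histone genes differed little, and 3 of 39 were called. A gene was called at an adjusted p below 0.01 with a fold above 1.5. The linker histone gene AT1G06760 rose by 0.59 ± 0.06 on the log2 scale, while the linker histone gene HIS1-3 fell by 0.71 ± 0.07 and the H2B gene AT2G28720 fell by 1.08 ± 0.10. Below the fold threshold, the replication-linked genes lay mostly above 0, with a median log2 fold of 0.22 over 25 genes (0.12 without Col replicate 3 and 0.14 without scaling), and the variants lay on both sides, with a median of −0.16 over 11 genes. The median over all 19329 tested genes was −0.002.

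Over all genes, 8.31% were called higher and 7.86% lower in csu5-1 against Col, so 1 histone gene higher and 2 lower are no more than that share. At an adjusted p below 0.01 with no limit on the fold, 11 histone genes were higher, where 17.5% of all genes were, and 7 were lower, where 18.5% were. On the values as deposited, every csu5-1 library lay above every Col library for 4258 of 19329 genes and below for 6890. Among the 39 histone genes these numbered 13 and 10, so groups without overlap were frequent. The p-values are from limma on log2(FPKM + 0.5), adjusted by Benjamini-Hochberg over all tested genes, and errors of log2 folds are standard errors. Folds are on that scale, which understates the change of low genes.

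**Figure D1:**
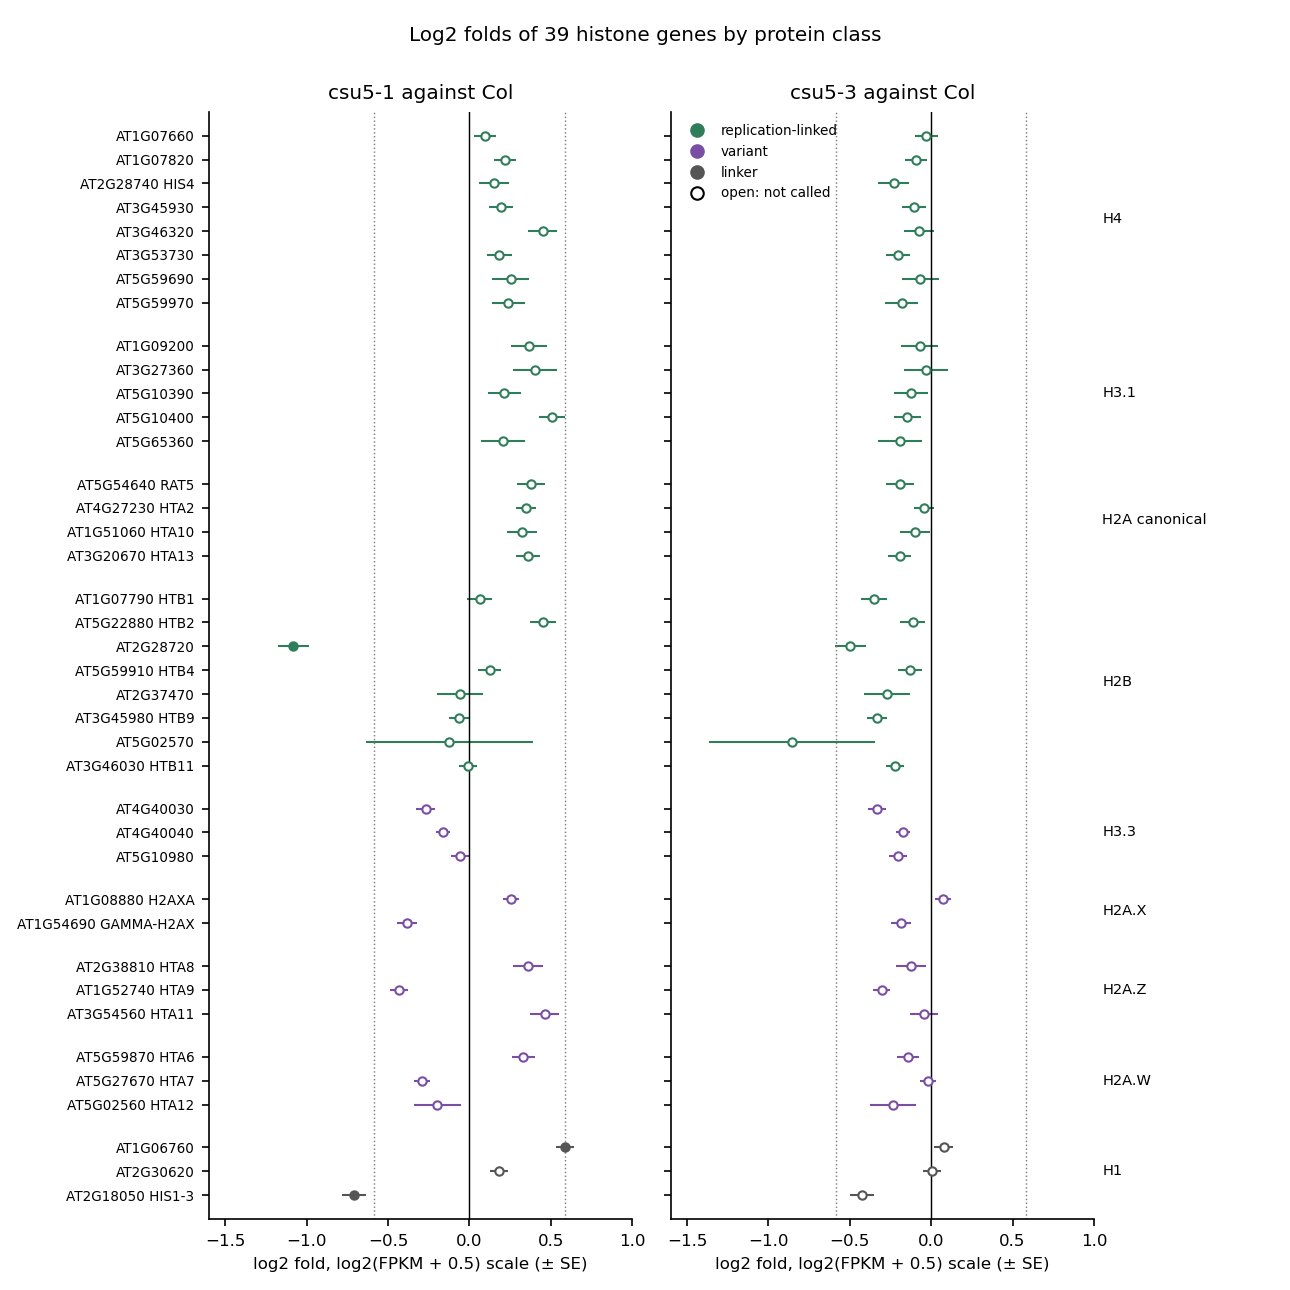
Log2 folds (± SE, limma) of the 39 histone genes by protein class, csu5-1 against Col on the left and csu5-3 against Col on the right; filled points are called genes and dotted lines mark a fold of 1.5. In csu5-1 the points of H4, H3.1 and canonical H2A lie to the right of 0 and 3 genes are filled; in csu5-3 no gene is filled and 36 of 39 lie to the left of 0.

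H4 and H3 form the tetramer at the heart of the nucleosome. All 8 H4 genes had log2 folds above 0 in csu5-1 against Col, from 0.10 (AT1G07660) to 0.45 ± 0.09 (AT3G46320, adjusted p = 0.0012), and none was called. AT3G46320 stood at 43.0, 38.4 and 41.3 FPKM in csu5-1, 30.9, 29.6 and 29.3 FPKM in csu5-3, and 32.9, 35.6 and 26.6 FPKM in Col. Every csu5-1 library was above every library of the other genotypes. AT3G46320 and its close copy AT3G45930 (0.20 ± 0.07, adjusted p = 0.043) share 11.1% to 12.1% of their 100-base windows. Reads that lie within those windows cannot be assigned to 1 of the copies. The H4 genes AT1G07660 and AT1G07820 likewise share 6.1% and 4.3% of their windows.

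All 5 H3.1 genes, which supply H3 at replication, were above 0, with a median of 0.37, and none was called. AT5G10400 stood at 56.4, 61.4 and 58.4 FPKM in csu5-1, 43.6, 39.8 and 34.9 FPKM in csu5-3, and 46.4, 44.3 and 39.9 FPKM in Col. The csu5-1 libraries were again above all others, and the log2 fold against Col was 0.51 ± 0.08 (adjusted p = 0.00023). Its neighbour 577 bases away, the H3.1 gene AT5G10390, stood at 0.22 ± 0.10 (adjusted p = 0.10). AT5G65360, which had the highest mean of the H3.1 genes over all libraries, stood at 104, 88.6 and 92.2 FPKM in csu5-1, 92.4, 77.6 and 61.1 FPKM in csu5-3, and 102, 83.6 and 76.2 FPKM in Col. Its groups overlapped, with a log2 fold of 0.21 ± 0.13 for csu5-1 against Col (adjusted p = 0.22).

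The canonical H2A genes were the most even class. Their log2 folds in csu5-1 against Col were 0.32 ± 0.09 for HTA10, 0.35 ± 0.06 for HTA2, 0.36 ± 0.07 for HTA13 and 0.38 ± 0.08 for RAT5, the gene known for its need in Agrobacterium T-DNA integration. None was called, and 3 of the 4 had an adjusted p below 0.01, HTA10 being the exception (0.011). Over all genes, 17.5% were higher at that threshold. HTA2 stood at 77.6, 80.5 and 79.3 FPKM in csu5-1, 66.1, 65.5 and 59.7 FPKM in csu5-3, and 71.3, 64.4 and 61.2 FPKM in Col. The csu5-1 libraries lay above all 6 others.

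H2B, which pairs with H2A in the nucleosome, was the class with the widest range of log2 folds. In csu5-1 against Col, 3 of 8 log2 folds were above 0 and 5 below, with a median of −0.04. That median has no settled side: with 1 library left out it ran from −0.08 (without Col replicate 3) to 0.05 (without csu5-1 replicate 2), and it was 0.03 at a pseudocount of 0.1. AT2G28720 fell: it stood at 21.7, 17.6 and 17.5 FPKM in csu5-1, 30.7, 33.6 and 26.5 FPKM in csu5-3, and 42.2, 44.3 and 41.7 FPKM in Col. The 3 genotypes did not overlap, with csu5-1 lowest and Col highest. Its log2 fold in csu5-1 against Col was −1.08 ± 0.10 (adjusted p = 1.7e-06), and it was called under all 18 alternative settings, at −1.18 to −1.03. AT2G28720 (chr2:12326808-12327808 of TAIR10.1, plus strand, no coding intron) shares no 100-base window with another gene. Its neighbour 1536 bases away, the H4 gene HIS4, stood at 0.15 ± 0.09 (adjusted p = 0.20).

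At the other end of the class, HTB2 stood at 143.2, 150.1 and 152.0 FPKM in csu5-1, 109.5, 101.5 and 107.2 FPKM in csu5-3, and 127.2, 120.2 and 98.3 FPKM in Col. Its csu5-1 libraries were above all others, with a log2 fold against Col of 0.45 ± 0.08 (adjusted p = 0.00045), below the fold threshold. The most abundant H2B gene, HTB4, had a log2 fold of 0.12 ± 0.07 (adjusted p = 0.18). HTB9 and HTB11 were near 0 (−0.06 ± 0.06 and −0.01 ± 0.05), as was HTB1 (0.06 ± 0.08), which lay below 0 without scaling between libraries. AT2G37470 stood at −0.06 ± 0.14, and AT5G02570, which had few counted reads, at −0.12 ± 0.51. HTB11, AT2G37470 and AT5G02570 lay above 0 when some single libraries were left out.

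Among the variants no gene was called in csu5-1 against Col, but 9 of 11 had an adjusted p below 0.01, 4 of them higher and 5 lower. Over all genes, 17.5% were higher and 18.5% lower at that threshold. All 3 H3.3 genes had log2 folds below 0: −0.27 ± 0.06 for AT4G40030 (adjusted p = 0.0019), −0.16 ± 0.04 for AT4G40040 (adjusted p = 0.0077) and −0.06 ± 0.06 for AT5G10980 (adjusted p = 0.43), which lay above 0 under quantile normalization. AT4G40030 stood at 264, 265 and 270 FPKM in csu5-1, 283, 274 and 253 FPKM in csu5-3, and 357, 344 and 317 FPKM in Col. Both mutants were below every Col library and overlapped each other.

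Within each H2A variant class the members went opposite ways in csu5-1 against Col. Of the H2A.Z genes, HTA9 was lower (−0.43 ± 0.05, adjusted p = 3.2e-05), while HTA8 (0.36 ± 0.09, adjusted p = 0.0068) and HTA11 (0.46 ± 0.09, adjusted p = 0.00076) were higher. HTA9, the abundant copy, stood at 115.7, 123.4 and 116.2 FPKM in csu5-1, 139.7, 138.6 and 132.5 FPKM in csu5-3, and 180.5, 169.5 and 157.9 FPKM in Col. The 3 genotypes did not overlap. HTA11 stood at 34.5, 34.4 and 35.7 FPKM in csu5-1, 26.3, 26.6 and 24.6 FPKM in csu5-3, and 29.9, 27.9 and 22.5 FPKM in Col, with csu5-1 above all others.

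Of the H2A.X genes, H2AXA was higher in csu5-1 (0.26 ± 0.05, adjusted p = 0.00098) and GAMMA-H2AX lower (−0.39 ± 0.06, adjusted p = 0.00023). GAMMA-H2AX stood at 29.1, 27.9 and 31.3 FPKM in csu5-1, 35.7, 37.1 and 34.8 FPKM in csu5-3, and 41.4, 42.6 and 38.5 FPKM in Col, and the genotypes did not overlap. It shares 42.9% of its 100-base windows with genes annotated on the opposite strand. Of the H2A.W genes, HTA6 was higher (0.33 ± 0.07, adjusted p = 0.0017), HTA7 lower (−0.29 ± 0.05, adjusted p = 0.00037) and HTA12 at −0.20 ± 0.14 (adjusted p = 0.27). HTA7 stood at 65.7, 62.3 and 64.3 FPKM in csu5-1, 85.6, 82.1 and 78.9 FPKM in csu5-3, and 84.4, 81.3 and 83.6 FPKM in Col, so csu5-1 alone was apart. The 7 genes of the H2A.Z, H2A.X and H2A.W classes with an adjusted p below 0.01, all but HTA12, stayed on the same side of 0 without scaling and under quantile normalization.

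The 3 linker histone genes split. HIS1-3, a gene known for induction by dehydration and abscisic acid, fell. It stood at 158, 189 and 161 FPKM in csu5-1, 205, 241 and 208 FPKM in csu5-3, and 302, 276 and 297 FPKM in Col. The 3 genotypes did not overlap, and the log2 fold in csu5-1 against Col was −0.71 ± 0.07 (adjusted p = 7.2e-06), called under all 18 alternative settings. AT1G06760 rose: it stood at 161, 156 and 169 FPKM in csu5-1, 116, 125 and 118 FPKM in csu5-3, and 106, 119.6 and 116 FPKM in Col. Every csu5-1 library was above every other, while csu5-3 and Col overlapped.

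The fold of AT1G06760 in csu5-1 against Col, 1.50, was just past the threshold (log2 fold 0.59 ± 0.06, adjusted p = 3.6e-06). It was not called without Col replicate 1 (0.53), without csu5-1 replicate 3 (0.56) or without scaling (0.51), and it shares 36.3% of its 100-base windows with an antisense gene. The linker histone gene AT2G30620 stood at 0.18 ± 0.05 (adjusted p = 0.014). Within each library the level of HIS1-3 divided by that of AT1G06760, both per length, was 0.982, 1.21 and 0.956 in csu5-1, 1.76, 1.93 and 1.76 in csu5-3, and 2.85, 2.31 and 2.57 in Col. The genotypes did not overlap in this ratio, with csu5-3 between csu5-1 and Col.

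**Figure D2:**
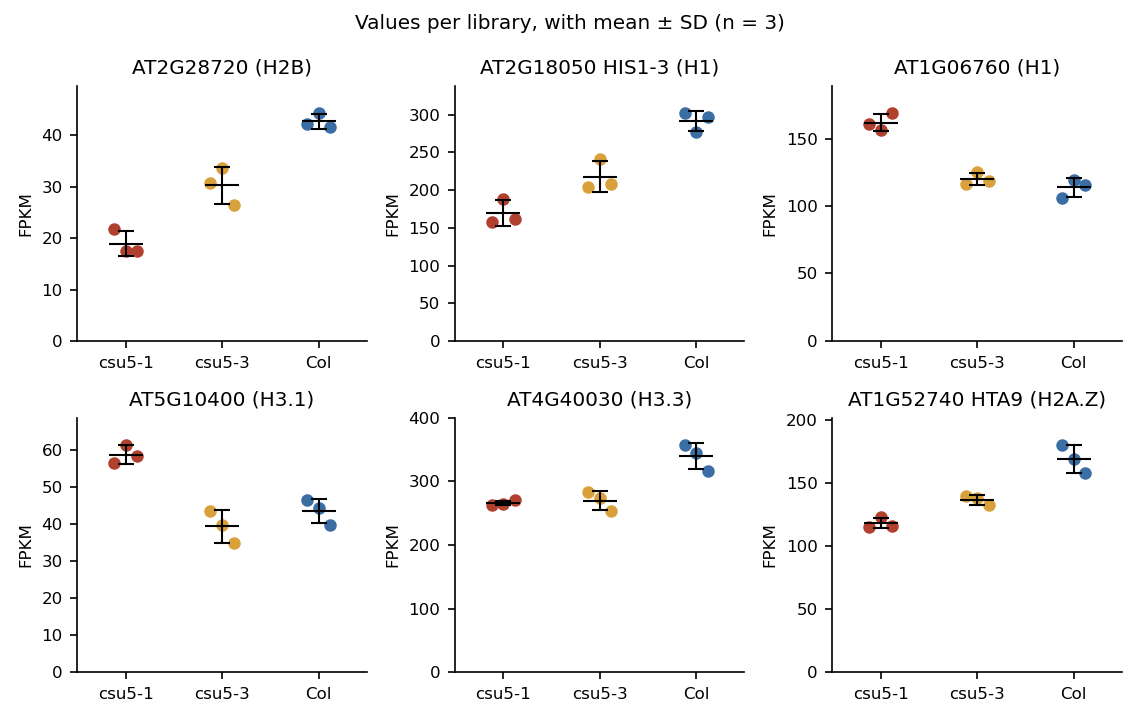
FPKM per library (points) with mean ± SD (bars, n = 3) of the H2B gene AT2G28720, the H1 genes HIS1-3 and AT1G06760, the H3.1 gene AT5G10400, the H3.3 gene AT4G40030 and the H2A.Z gene HTA9, in csu5-1, csu5-3 and Col. AT2G28720, HIS1-3 and HTA9 are lowest in csu5-1 and highest in Col, with csu5-3 between, whereas AT1G06760 and AT5G10400 stand apart in csu5-1 only.

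Both genes that fell lack the octamer. The 100 bases before their starts are shown for comparison with the octamer promoters above; the hexamer ACGTCA of AT2G28720 is in capitals, and HIS1-3 has neither motif in its 300 bases. The sequences are from TAIR10.1 in the direction of the gene.
AT2G28720 (H2B, chr2:12326708-12326807, plus strand): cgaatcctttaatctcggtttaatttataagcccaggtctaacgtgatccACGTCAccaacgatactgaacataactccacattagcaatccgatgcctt
HIS1-3 (AT2G18050, H1, chr2:7845823-7845922, plus strand): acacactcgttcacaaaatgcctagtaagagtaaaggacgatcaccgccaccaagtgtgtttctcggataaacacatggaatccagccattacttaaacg
Over the 10 genes with the octamer, 9 log2 folds were above 0 in csu5-1 against Col, with a median of 0.33 and 1 called (AT1G06760). Over the 29 without it, 17 were above 0 and 12 below, with a median of 0.15 (0.09 without Col replicate 3 and 0.07 without scaling) and 2 called. The exception among the 10 was the H3.3 gene AT4G40040 (−0.16 ± 0.04). The 11 genes with the hexamer, 7 of them H2B genes, had a median of −0.01. These counts describe the genes and were not tested, since the motif is spread unevenly over the protein classes.

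In csu5-3 seedlings against Col no histone gene was called. Of 39 log2 folds, 36 were below 0, among them all 25 of the replication-linked genes, whose median was −0.15 (−0.06 without Col replicate 1), and 10 of 11 variants, with a median of −0.17. The 3 above 0 were H2AXA (0.07 ± 0.05), AT1G06760 (0.08 ± 0.06) and AT2G30620 (0.01 ± 0.05). Across all genes few were called in this comparison, 0.119% higher and 0.129% lower, and 0.243% and 0.352% at an adjusted p below 0.01 with no limit on the fold, where the histone genes again numbered 0 in each direction (4 lower when only genes reaching 5 FPKM were tested, and 1 lower without scaling or without csu5-1 replicate 2). With a block for replicate number, more than 4 histone genes were lower at that adjusted p, a count given in the closing section. At an unadjusted p below 0.05, limma gave 0 histone genes higher and 14 lower, against 1890 higher and 2360 lower among the 19329 genes tested.

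The genes lower in csu5-3 with the smallest adjusted p were AT4G40030 (−0.33 ± 0.06, adjusted p = 0.011), HTA9 (−0.31 ± 0.05, adjusted p = 0.012), HIS1-3 (−0.42 ± 0.07, adjusted p = 0.012), HTB9 (−0.33 ± 0.06, adjusted p = 0.013) and AT2G28720 (−0.50 ± 0.10, adjusted p = 0.016). For HIS1-3, AT2G28720 and HTA9 all 3 csu5-3 libraries were below all 3 Col libraries, as the values given above show. For HTB9 the csu5-3 libraries stood at 137.9, 126.5 and 119.6 FPKM and the Col libraries at 167.1, 165.0 and 150.9 FPKM, without overlap. As deposited, every csu5-3 library lay below every Col library for 2554 of 19329 genes and above for 2698. Among the 39 histone genes these numbered 11 and 0. The comparisons of csu5-1 and of csu5-3 with Col share the 3 Col libraries, so a low or high Col library moves both.

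Most replication-linked folds in csu5-3 were within the spread of the libraries. The 8 H4 genes lay between −0.23 (HIS4) and −0.03 (AT1G07660), the 5 H3.1 genes between −0.19 (AT5G65360) and −0.03 (AT3G27360), and the canonical H2A genes between −0.19 (HTA13) and −0.04 (HTA2). For 6 of these genes, AT1G07660, AT3G46320, AT5G59690, AT1G09200, AT3G27360 and HTA2, leaving out 1 library turned the sign. H2B was the lowest class, with a median of −0.30 (−0.18 without Col replicate 1) and HTB1 at −0.35 ± 0.08 (adjusted p = 0.025).

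The direct comparison of csu5-1 with csu5-3 tests the difference between the means of the mutants; the Col mean does not enter it, but the Col libraries share in the estimate of the spread and in the scaling. The H3.1 gene AT5G10400 was called higher in csu5-1 (log2 fold 0.65 ± 0.08, adjusted p = 3.3e-05; not called without csu5-3 replicate 3, at 0.57, or without scaling, at 0.57), where 8.12% of all genes were called higher. No histone gene was called lower, where 6.59% of all genes were. Limma gave 28 histone genes higher and 5 lower at an unadjusted p below 0.05. Over the 19329 genes tested, 4935 were higher and 5190 lower at that p. With no limit on the fold, 21 of 39 histone genes were higher in csu5-1 at an adjusted p below 0.01, against 16.1% of all genes, and 3 were lower, against 16.4%. The count of 21 is that of the main fit. It was smaller with no filter, with no scaling, with no trend and with any 1 library left out, as the closing section gives. The 21 held 16 replication-linked genes, 4 variants and 1 H1 gene.

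By class, and in the main fit only, csu5-1 exceeded csu5-3 at an adjusted p below 0.01 for 6 of 8 H4 genes, 2 of 5 H3.1 genes, all 4 canonical H2A genes and 4 of 8 H2B genes. The median log2 fold over the 25 replication-linked genes was 0.39, and 24 of them were above 0. The canonical H2A gene RAT5 stood at 55.5, 60.7 and 49.7 FPKM in csu5-1 and 41.0, 41.3 and 35.4 FPKM in csu5-3, without overlap (0.57 ± 0.08, adjusted p = 0.00015). HTB2 (0.56 ± 0.08, adjusted p = 8.4e-05) and HTA13 (0.55 ± 0.07, adjusted p = 4.3e-05) were likewise just under the fold threshold. As deposited, every csu5-1 library lay above every csu5-3 library for 3993 of 19329 genes and below for 6859. Among the 39 histone genes these numbered 23 and 6.

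The variants higher in csu5-1 than in csu5-3 at that p were HTA11 (0.51 ± 0.09), HTA8 (0.48 ± 0.09), HTA6 (0.47 ± 0.07) and H2AXA (0.18 ± 0.05), and the linker histone gene was AT1G06760 (0.51 ± 0.06, adjusted p = 1.3e-05). The 3 lower were AT2G28720 (−0.58 ± 0.10, adjusted p = 0.00031), HTA7 (−0.28 ± 0.05, adjusted p = 0.00066) and HIS1-3 (−0.28 ± 0.07, adjusted p = 0.0076). AT2G28720 was at the fold threshold itself and was called lower under 7 of 18 alternative settings, among them the fit of both mutants without Col. The H3.3 genes differed little between the mutants, with log2 folds of 0.06 ± 0.06 for AT4G40030, 0.01 ± 0.04 for AT4G40040 and 0.15 ± 0.06 for AT5G10980; the first lay below 0 without scaling, and the second did so without scaling, under quantile normalization, with no filter and without csu5-3 replicate 3.

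Summed within a library, the replication-linked genes gave 1862, 1847 and 1854 FPKM in csu5-1, 1623, 1537 and 1426 FPKM in csu5-3, and 1880, 1738 and 1544 FPKM in Col. On these deposited values the csu5-1 libraries were close together and lay inside the range of Col, while csu5-3 overlapped Col at its low end. The 11 variants summed to 1252, 1250 and 1264 FPKM in csu5-1, 1314, 1297 and 1216 FPKM in csu5-3, and 1522, 1469 and 1401 FPKM in Col. Both mutants were below every Col library and overlapped each other. These sums are as deposited, before scaling between libraries, whereas the log2 folds are after it. Scaling divides by 0.961 to 0.970 in csu5-1 and by 1.017 to 1.025 in Col. After that division the replication-linked sums of csu5-1 lie above those of Col and no longer inside their range.

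H3.3 carried most of the variant sum, with 811 ± 4.5 FPKM in csu5-1, 827 ± 33.3 in csu5-3 and 971 ± 37.3 in Col (SD, n = 3). The H1 genes summed to 443 ± 20.4 FPKM in csu5-1, 443 ± 24.9 in csu5-3 and 509 ± 5.96 in Col.

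**Figure D3:**
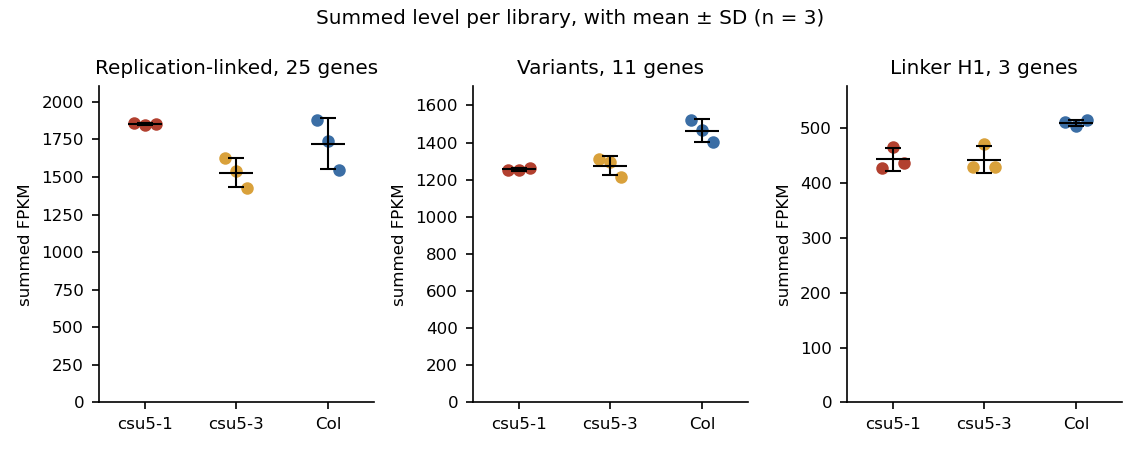
Summed FPKM per library (points) with mean ± SD (bars, n = 3) of the 25 replication-linked, 11 variant and 3 linker histone genes in csu5-1, csu5-3 and Col. Values are as deposited, before scaling between libraries. On them the replication-linked sums of csu5-1 (1847 to 1862) lie within those of Col (1544 to 1880), a placement that scaling changes. The variant sums of both mutants lie below those of Col (1401 to 1522).

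A ratio within a library needs no scaling between libraries. The summed level of the replication-linked genes divided by that of the variants was 1.49, 1.48 and 1.47 in csu5-1, 1.24, 1.19 and 1.17 in csu5-3, and 1.24, 1.18 and 1.10 in Col. The csu5-1 libraries were above all others, and csu5-3 overlapped Col. With medians in place of sums, the log2 difference between csu5-1 and Col was 0.0621 in place of 0.334, a smaller gap for the gene in the middle of each list. Between csu5-3 and Col it was −0.3214 by medians in place of 0.0313 by sums, and −0.0134 by sums without Col replicate 3. A ratio shows unequal change and not which of its parts moved.

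For H3, the H3.1 sum over the H3.3 sum was 0.362, 0.336 and 0.338 in csu5-1, 0.290, 0.264 and 0.231 in csu5-3, and 0.257, 0.252 and 0.222 in Col. For H2A, the canonical sum over the H2A.Z sum was 2.11, 1.99 and 1.94 in csu5-1, 1.55, 1.50 and 1.41 in csu5-3, and 1.39, 1.32 and 1.33 in Col. In both ratios csu5-1 was apart from the other genotypes; csu5-3 overlapped Col for H3 and lay just above it for H2A. HTA9 carries the H2A.Z sum, and the rarer HTA8 and HTA11, which lay on the other side of 0 in csu5-1 against Col, make up the rest.

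**Figure D4:**
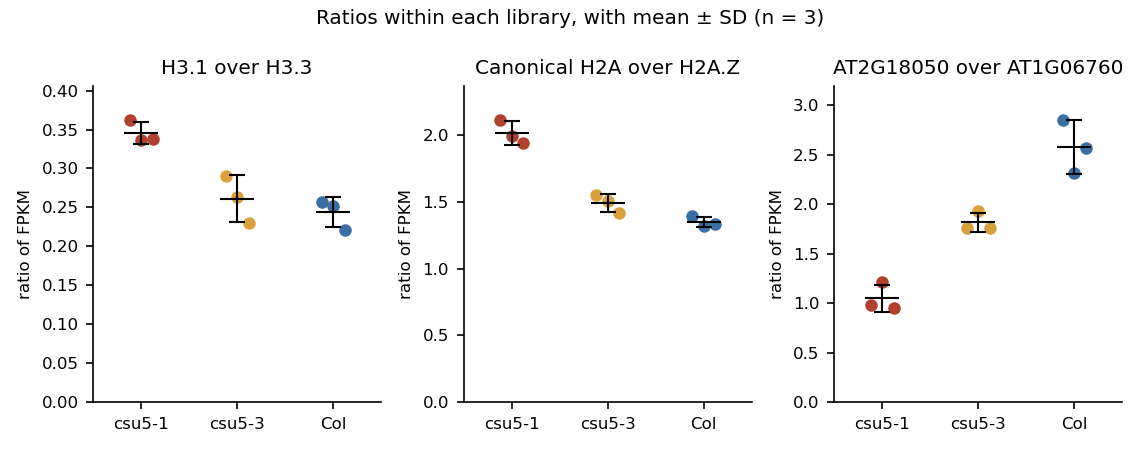
Ratios of summed FPKM within each library (points) with mean ± SD (bars, n = 3): H3.1 over H3.3, canonical H2A over H2A.Z, and the H1 genes HIS1-3 (AT2G18050) over AT1G06760, in csu5-1, csu5-3 and Col. The first 2 ratios are highest in csu5-1 (0.345 ± 0.015 and 2.01 ± 0.09), and the H1 ratio is lowest there (1.05 ± 0.14, against 1.81 ± 0.10 in csu5-3 and 2.58 ± 0.27 in Col).

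Genes that share the histones' setting were read from lists of other genes. Over all tested genes, 8.31% were called higher and 7.86% lower in csu5-1 against Col, the shares beside which the list counts stand. Of 22 genes of mitosis, 8 rose in csu5-1 against Col and none was called lower, with a median log2 fold of 0.43. Under the alternatives 6 to 9 were called higher. Limma put 17 of them higher and 0 lower at an unadjusted p below 0.05, against 5295 and 5507 of the 19329 genes tested. CDC20.1, an activator of the anaphase-promoting complex, stood at 24.1, 24.6 and 25.7 FPKM in csu5-1, 16.6, 20.9 and 19.7 FPKM in csu5-3, and 14.0, 14.9 and 15.3 FPKM in Col. It rose by 0.81 ± 0.08 (adjusted p = 4.7e-06), without overlap between the genotypes. The kinase gene AUR2 (0.90 ± 0.10), the spindle gene TPX2 (0.75 ± 0.11) and the cyclin gene CYCA1;1 (0.72 ± 0.12) rose too.

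Of 25 tested genes of DNA replication, the work of S phase, 17 had log2 folds above 0 in csu5-1 against Col. The median was 0.12 (0.04 without scaling), and of the 25 genes 1 fell and none was called higher. Limma put 6 of them higher and 2 lower at an unadjusted p below 0.05. Over the 19329 genes tested, 5295 were higher and 5507 lower at that p. At an adjusted p below 0.01 with no limit on the fold, 3 were higher, namely the helicase genes MCM5 (0.40 ± 0.08) and MCM4 (0.35 ± 0.10) and ETG1 (0.37 ± 0.10). The 2 lower at that threshold were TSO2 and RNR1 (−0.30 ± 0.06). Over all genes, 17.5% were higher and 18.5% lower at that threshold. The difference between the mitosis and DNA replication lists was not tested. The 1 that fell was TSO2, a small subunit of ribonucleotide reductase, which makes the DNA precursors; it stood at 41.5, 39.3 and 49.9 FPKM in csu5-1, 107, 97.7 and 88.7 FPKM in csu5-3, and 70.4, 77.8 and 75.0 FPKM in Col. It fell by 0.69 ± 0.09 against Col (adjusted p = 5.0e-05), and no genotype overlapped another. Against csu5-3, TSO2 and the large-subunit gene RNR1 fell in csu5-1, by 1.08 ± 0.09 and 0.62 ± 0.06.

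Of 21 genes of histone chaperones and exchange complexes, 4 fell in csu5-1 against Col and none was called higher. The median was −0.04 (−0.15 to −0.01 under the alternatives). Limma put 2 of the 21 higher and 8 lower at an unadjusted p below 0.05, against 5295 and 5507 of the 19329 genes tested. The 4 that fell encode chaperones of the NAP1 family, which bind H2A and H2B: NRP1 (−0.99 ± 0.07), NRP2 (−0.95 ± 0.07), NAP1;1 (−0.78 ± 0.06) and NAP1;3 (−0.69 ± 0.07). NRP1 stood at 35.8, 32.6 and 40.0 FPKM in csu5-1, 73.0, 68.5 and 76.5 FPKM in csu5-3, and 79.0, 75.8 and 73.4 FPKM in Col. Only its csu5-1 libraries were apart, and it was lower there than in csu5-3 as well (−0.92 ± 0.07, adjusted p = 7.4e-07).

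Among 18 cell cycle regulators, the D-type cyclin gene CYCD1;1 (0.92 ± 0.06) and MYB3R4 (0.72 ± 0.14), an activator of mitotic genes, rose in csu5-1 against Col. None was called lower, and the median of the 18 was 0.12, with 11 log2 folds above 0 and 7 below. At an adjusted p below 0.01 with any fold, 3 were higher and 2 lower, against 17.5% and 18.5% of all genes. Of 9 further histone genes, 5 passed the filter, and CENH3, the centromeric H3, rose by 0.61 ± 0.13 (adjusted p = 0.0017; not called under 5 settings, among them without Col replicate 3, at 0.53, without csu5-1 replicate 3, at 0.55, and without scaling, at 0.54); it stood at 5.03, 5.08 and 5.79 FPKM in csu5-1, 2.86, 2.95 and 3.63 FPKM in csu5-3, and 3.89, 3.54 and 3.05 FPKM in Col. The csu5-1 libraries were above all others. The pollen-specific H3 gene HTR10 was listed at 0 in all 9 libraries. In csu5-3 against Col none of the 98 tested genes on all lists was called (0 at an adjusted p below 0.01 at any fold). At an unadjusted p below 0.05, limma put 9 mitosis genes and 7 DNA replication genes higher, and 0 and 1 lower. Over the 19329 genes tested, 1890 were higher and 2360 lower at that p. The mitosis list had 19 of 22 log2 folds above 0 and a median of 0.20, and the DNA replication list 20 of 25 above 0 and a median of 0.10 (0.06 without Col replicate 3 and 0.15 without csu5-3 replicate 2). RNR1 (0.32 ± 0.06, adjusted p = 0.012) and TSO2 (0.39 ± 0.09, adjusted p = 0.033) had values above 0 in csu5-3.

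**Figure D5:**
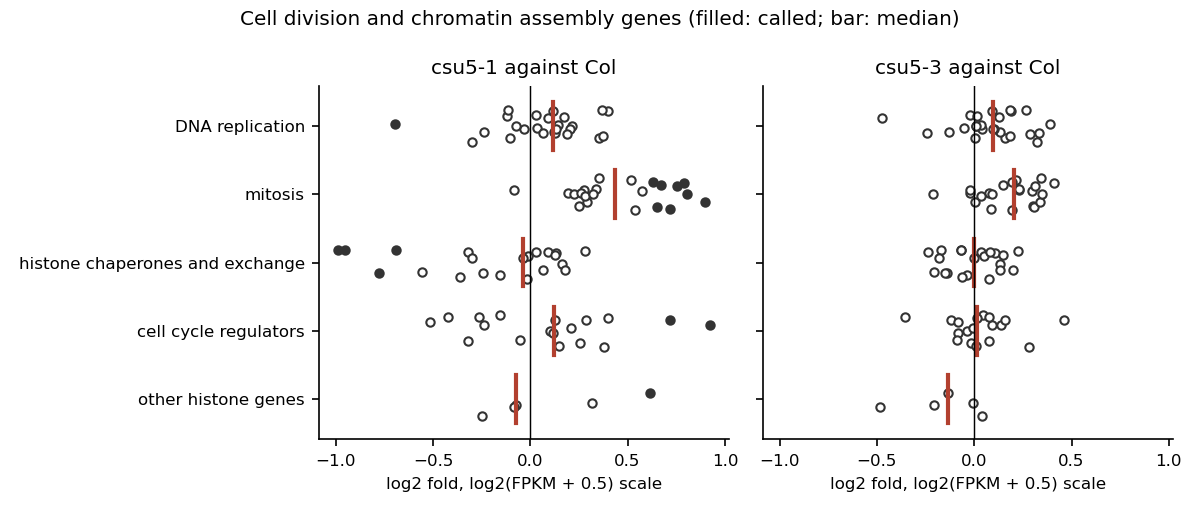
Log2 folds (limma) of genes of DNA replication, mitosis, histone chaperones and exchange, cell cycle regulation and other histones, csu5-1 against Col on the left and csu5-3 against Col on the right; points are genes, filled where called, and bars are list medians. In csu5-1, 8 of 22 mitosis genes are called higher (against 8.31% of all genes) and 4 of 21 chaperone genes lower (against 7.86% of all genes). In csu5-3 none is filled.

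Tissue markers were read beside the histone values in csu5-1, and the meristem genes did not move as 1 group. Of 8, 3 passed the filter. KNAT1 rose in csu5-1 against Col (0.63 ± 0.07, adjusted p = 1.1e-05; not called without csu5-1 replicate 2, at 0.57, or without scaling, at 0.55), ANT was higher below the fold threshold (0.45 ± 0.08, adjusted p = 0.00045) and STM stood at −0.14 ± 0.14 (adjusted p = 0.43). The list summed to 50.4 to 57.5 FPKM in csu5-1, 39.2 to 41.6 FPKM in csu5-3 and 38.1 to 41.8 FPKM in Col, of which KNAT1 alone made up 37.2 ± 3.27 FPKM in csu5-1, 26.6 ± 0.62 FPKM in csu5-3 and 25.2 ± 1.67 FPKM in Col (SD, n = 3). The root meristem genes WOX5, PLT1 and PLT2, under the filter, had means of 0.813, 0.753 and 0.447 FPKM in csu5-1 and 1.13, 0.96 and 0.583 FPKM in Col, with overlapping libraries. The shoot meristem gene CLV3, also under the filter, went the other way. It had means of 0.35 FPKM in csu5-1, 0.273 in csu5-3 and 0.123 in Col, with every csu5-1 library (0.2, 0.27 and 0.58) above every Col library. WUS, a shoot meristem gene, was at 0 to 0.04 FPKM in every library. Of the 4 organ markers, the root hair wall gene PRP3 (−1.45 ± 0.11) and the leaf gene LHCB1.3 (−0.61 ± 0.12) fell. The call of the leaf gene was lost under quantile normalization, with no filter (at −0.63) and when csu5-1 replicate 1 was left out (at −0.61). The part of tissue makeup in the histone values was not tested.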

How the data were processed

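The libraries hold poly(A)-selected RNA of whole seedlings, 9 in all, per the labels' protocols. The submitters' processing notes name Trimmomatic for trimming, HISAT2 2.05 for alignment to TAIR10 and HTSeq for counting. The deposited values carry no unit and were read as FPKM, which RPKM would look like too; the sources used here do not give the authors' formula. Depth was estimated from the steps between low values, of which 78.8% to 84.4% were whole reads (within 0.1 read), compared with 13.8% to 15.1% when another depth was assumed.

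Libraries were scaled by a mean of log ratios trimmed by 0.3 at each end (factors 0.961 to 0.970 for csu5-1, 1.01 to 1.03 for csu5-3 and 1.02 to 1.03 for Col). The 19329 genes that reached 1 FPKM in 3 or more libraries were fitted with limma 3.58.1 in R 4.3.3 on log2(FPKM + 0.5), with a mean per genotype and a mean-variance trend. Thresholds were an adjusted p of 0.01 and a fold of 1.5. "Rose" and "fell" are used for called genes. The fit was tested on simulated data. Python 3.11.15 drew the plots.

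The members, classes, lists, motifs and tests were chosen with earlier results of these data known. All members could be named, and of each list the called genes with the 4 smallest p-values. Some list genes that were not called against Col, such as MCM4, MCM5, ETG1 and ANT, are named outside that rule. Names came from the RefSeq table of TAIR10.1, which matched 31912 of 32678 identifiers. The files hold no coordinates; those printed are of TAIR10.1. Replicate numbers were not taken to pair the libraries and were left out of the model. Alternatives were the pseudocount, the filter, the scaling, the trend, the samples fitted, a replicate block and each library left out.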

Additional observations from a re-analysis of the deposited data

How the results depend on the processing

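Calls of single histone genes were the same in 692 of 698 gene and setting combinations for csu5-1 against Col, in 697 of 697 for csu5-3 against Col and in 682 of 697 for csu5-1 against csu5-3. The log2 fold lay on the other side of 0 in 9 of these combinations (5 genes), 17 (9 genes) and 8 (3 genes), in the same order, and 0 of those genes were called. For csu5-1 against Col, the count of histone genes higher was 1, and 0 at a pseudocount of 1, with no filter, with no scaling and with 2 groups only (0 to 1 with 1 library left out). The log2 difference in the ratio of replication-linked to variant level was 0.334, 0.0621 by medians and 0.289 to 0.372 with 1 library left out. For csu5-3 against Col that difference was 0.0313, −0.3214 by medians and −0.0134 to 0.069 with 1 library left out, the lowest without Col replicate 3. The count of all genes higher was 23 there, 3 with no filter, 1 with no trend, 15 with 2 groups only and 4 to 25 with 1 library left out. The moves by over 1.5 times came without Col replicate 1 (4), Col replicate 3 (9), csu5-3 replicate 1 (11) and csu5-3 replicate 2 (5). The count lower was 25, 6 with no filter, 4 with no trend, 43 with the replicate block and 7 to 26 with 1 library left out (7 without Col replicate 1, 15 without csu5-3 replicate 2). Histone genes lower at any fold numbered 0, but 4 at a filter of 5 FPKM, 1 with no scaling, 6 with the replicate block and 0 to 1 with 1 library left out (1 without csu5-1 replicate 2). For csu5-1 against csu5-3, histone genes higher numbered 1, 0 with no scaling and 0 to 4 with 1 library left out (0 without csu5-3 replicate 3, 4 without csu5-3 replicate 1, 2 without csu5-1 replicate 1, csu5-1 replicate 3 or csu5-3 replicate 2), and at any fold 21, 13 with no filter, 13 with no scaling, 12 with no trend and 14 to 20 with 1 library left out. Histone genes lower numbered 0, but 1 at a pseudocount of 0.1, with no filter, with no scaling, under quantile normalization and with 2 groups only (0 to 1 with 1 library left out, 1 without csu5-1 replicate 1 or csu5-3 replicate 3), and at any fold 3, 5 with no scaling and 2 to 3 with 1 library left out. That ratio difference was 0.3025, 0.3835 by medians and 0.287 to 0.325 with 1 library left out. The cause of these changes was not tested. Same-numbered libraries had correlated deviations of 0.017 to 0.152, above 0.1 in 2 of 9 pairs, and the same number was the best match in 16 of 18 cases. This is a hint from the data and not from the design, so the numbers were not taken to pair the libraries. The counts with the replicate block are given only here. Without scaling the median gene lay at −0.08 in csu5-1 against Col. The least covered gene, AT5G02570, is limited by its few reads and by its overlap with HTA12, and these limits cannot be told apart here.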
